A study of Drosophila melanogaster with 36 samples.

Results

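Isogenic line 75 is 1 of 9 inbred Drosophila melanogaster stocks whose embryos were profiled on Affymetrix one-colour arrays, and it was chosen by its array titles alone. It had 4 of the 36 arrays (titles with 75 followed by a letter), 2 RNA samples at 5 h and 2 at 8 h, called samples 1 and 2 here after the letters A and B. The other 31 arrays used came from lines Drosophila_17, Drosophila_23, Drosophila_58, Drosophila_83, Drosophila_89, Drosophila_128, Drosophila_134 and Drosophila_145 at the same times, with 1 array of Drosophila_17 at 5 h and 2 arrays in each other group. A further array at 5 h, whose title names no line, was left out. Flies of an isogenic line are inbred to near genetic identity, so line 75 stands for 1 genotype, and no treatment, transgene or mutation is given for any line. The 2 RNA samples of a line are not stated to come from separate embryo collections, so p-values measure only the spread between these samples, which may be technical.

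The fly egg is loaded by the mother with messenger RNAs that run the first divisions and place the body axes. These maternal transcripts are cleared while the embryo's own genome is switched on, with the zinc finger protein Zelda (zld) among the activators. Zygotic genes then build cell membranes around the nuclei, divide the body into segments and, with Notch signalling, pick out the neuroblasts that make the nervous system. In whole embryos, fewer cells of a type and less RNA per cell cannot be told apart.

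The arrays of line 75 were bright. Deposited total intensity was 212329 to 266525 in line 75 and 46261 to 309710, with a median of 131507, in the other lines. At 8 h both line 75 arrays were brighter than every other array, the highest of which was 190386, so at that time brightness and line cannot be told apart. On the line 75 arrays 6599 to 8128 of 18769 probe sets exceeded a limit set by negative controls, and on the other arrays 3156 to 8005 did. The ratio of 3' to 5' actin probe sets, a sign of RNA length, was 2.33 to 4.44 in line 75. Elsewhere it ran from 1.68 through a median of 7.34 to 295.09. For a first pair of GAPDH probe sets this ratio had medians of 21.18 in line 75 and 22.25 elsewhere. For a second GAPDH pair it ran from 1.81 through a median of 2.035 to 2.57 in line 75. Elsewhere that pair ran from 0.86 through 3.13 to 64.51. Intensities below were quantile normalised, and differences are line 75 minus the mean of the other 8 lines on the log2(intensity + 16) scale, ± SE, which understates the change of dim genes. A gene is called when limma's adjusted p (Benjamini-Hochberg over 18769 probe sets) is under 0.05.

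The 4 arrays of line 75 split in transcripts of late tissues. The sum of 14 muscle structural genes was 235 and 10.4 in the 5 h samples 1 and 2, and 8.49 and 148 in the 8 h samples 1 and 2. The muscle myosin light chain gene Mlc1 stood at 44.1 and 0.167 at 5 h, and at 31.3 in 8 h sample 2 against 0.118 in 8 h sample 1. Sample 1 at 5 h therefore exceeded the highest of the other 5 h arrays, 175, while sample 1 at 8 h lay under the lowest of the other 8 h arrays, 17.6. Cuticle protein genes followed the same split, with sums of 338 and 70.5 at 5 h and 65.3 and 289 at 8 h, as did haemocyte, fat body and basement membrane genes, with 161, 45.2, 47.6 and 240. Sums of the maternal egg activation genes did not, at 706, 772, 696 and 658. Such a split was not particular to line 75. Muscle sums of samples 1 and 2 were 146.5 and 6.28 in Drosophila_89 at 5 h. They were 174.8 and 16.2 in Drosophila_134 at 5 h, and 149.5 and 17.6 in Drosophila_17 at 8 h. In some other groups they were close, as in Drosophila_145 at 5 h (25.3 and 24.3). These late genes were singled out after their values were seen. Each main count is therefore also given without the 5 h sample 1 and 8 h sample 2 (the muscle-high pair) and without the other pair, which leaves 1 line 75 array at each time, assumed to vary like the other groups.

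**Figure D1:**
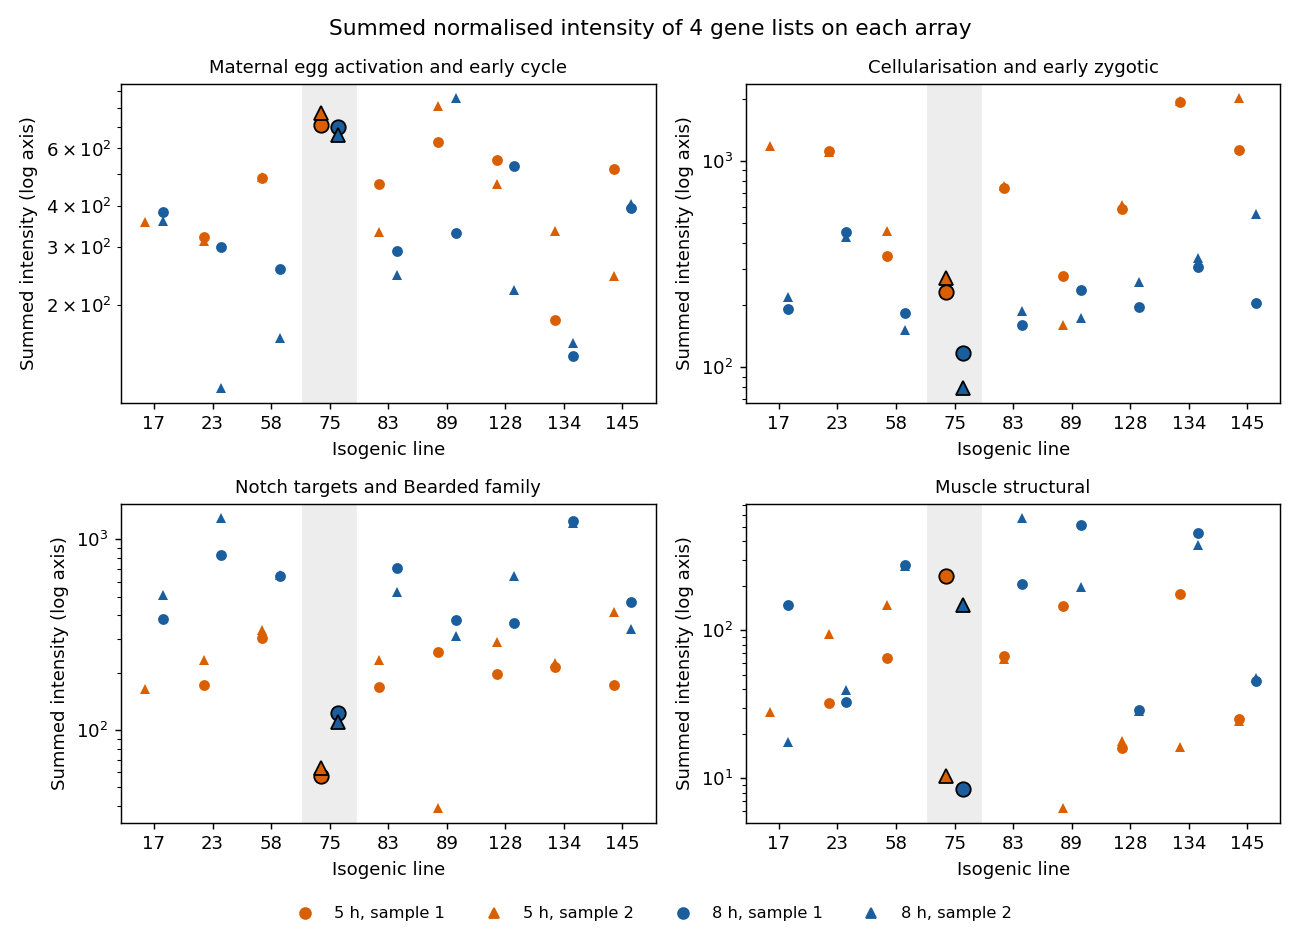
Summed quantile normalised intensity (log axis) of 4 gene lists on each of the 35 arrays, by isogenic line; colours mark 5 h and 8 h, circles sample 1 and triangles sample 2, and line 75 is shaded. In line 75 the maternal sums sit together between 658 and 772, the Notch target and Bearded family sums lie between 57.4 and 124, and the muscle sums split between 8.49 and 235. Sample 2 of Drosophila_89 at 5 h lay beyond these ranges, at 805.9 maternal, 38.9 Notch target and 6.28 muscle. Sample 1 of Drosophila_89 at 5 h did not, at 627.6, 256 and 146.5. At 8 h sample 2 of Drosophila_89 had a maternal sum of 854.6 and a Notch target sum of 312.4.

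Over both times 957 probe sets were higher in line 75 (5.1% of 18769) and 662 were lower (3.53%). Represented by 1 probe set each, 813 of 11982 genes were higher (6.79%) and 505 were lower (4.21%), and the median difference over all of them was -0.01. A difference of at least 1 log2 unit was reached by 30 of the higher and 41 of the lower probe sets. In 458 of the higher and 275 of the lower ones, line 75 was the extreme of the 9 lines at 5 h and at 8 h alike. Without the muscle-high pair 381 were called higher and 269 lower, and without the other pair 290 and 234.

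The split between directions moved with the scaling of the arrays. On the deposited scale 4727 probe sets were higher and 182 lower, with each array divided by its median 3205 and 257, and with a common 90th percentile 741 and 880. All 3 of these scalings kept 733 of the 957 higher calls and 173 of the 662 lower calls. The median difference of the 5179 genes measured above background was 0.02 as reported, 0.35 on the deposited scale and 0.23 after division by the median, so lower genes in line 75 are lower relative to that shift. With array brightness as a covariate 76 and 97 probe sets were called. The slope for brightness rests only on differences between samples of the same line and time. A lost call in this setting does not by itself mean that a difference is gone. Of the gene lists below, the neuroblast median stayed at -0.25 and the glycolysis median moved from 0.36 to 0.31. The maternal egg activation median moved from 0.34 to 0.24, and that of gap and terminal genes from -0.31 to -0.12. With the 9 lines as the units of replication, 4 were called higher (0.0213%) and 0 lower by limma. By unadjusted p under 0.05 there were 770 higher and 320 lower, and the same threshold applied to 18769 probe sets is 938. The calls below therefore set line 75 against the spread between RNA samples, not against the spread between lines. By the same test Drosophila_58 had 959 higher and 580 lower calls and Drosophila_134 had 683 and 579, while Drosophila_17, Drosophila_23 and Drosophila_83 had between 102 and 154 higher and between 47 and 54 lower.

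**Figure D2:**
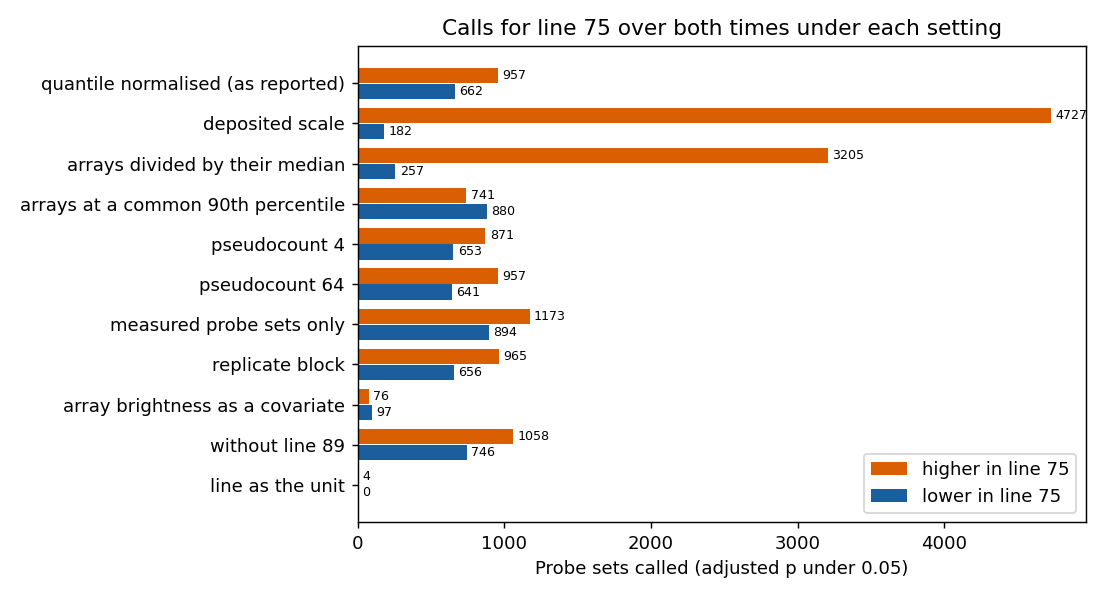
Number of probe sets called over both times (horizontal axis) under each setting, higher (orange) and lower (blue) in line 75. Counts range from 4727 higher and 182 lower on the deposited scale to 4 higher and 0 lower with the line as the unit.

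Maternal transcripts of egg activation were higher in line 75. Of 13 egg activation and early cycle genes, 9 were higher and 0 lower, with a median difference of 0.34. For this and the other lists, the shares over all genes were 6.79% higher and 4.21% lower. Over measured genes they were 14.6% and 9.6%. The deadhead gene dhd, a thioredoxin made in the female germ line, had intensities of 267 and 297 at 5 h and 231 and 214 at 8 h. In the other lines dhd ran from 8.19 through a median of 117 to 257 at 5 h, and from 2.9 through 37.1 to 390 at 8 h. At 5 h both line 75 arrays of dhd exceeded every other array, and at 8 h the ranges overlapped. Its difference was 2.04 ± 0.43 (adjusted p = 0.0013), a 4.10-fold higher level on this scale. Its adjusted p was 0.05 without the muscle-high pair and 0.079 without the other pair.

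The meiotic regulator matrimony (mtrm), an inhibitor of Polo kinase, was even across the line 75 arrays at 78.1, 85.5, 81.6 and 78.6. The other lines held a median of 36.4 at 5 h and 15.5 at 8 h, and single arrays reached 107 and 86.3. Its difference was 1.29 ± 0.18 (adjusted p = 5.4e-06). The maternal alpha-tubulin alphaTub67C, at 61.4 and 43.9 at 5 h and 48.6 and 38.1 at 8 h, was higher by 1.18 ± 0.21 (adjusted p = 0.00015). The cell cycle gene gnu, a subunit of the PNG kinase complex of the early embryo, stood at 35.3, 45.3, 32.5 and 40.8 and differed by 0.85 ± 0.12 (adjusted p = 6e-06). At 8 h both line 75 values of gnu lay above the highest of the other lines, 32.1. Members not called included smg, which directs maternal RNA decay, at 0.20 ± 0.17, and the meiotic Cdc25 gene twe at 0.17 ± 0.06. With brightness as a covariate 0 of the 13 were called. Without the muscle-high pair 5 were, and without the other pair 3.

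Transcripts that are localised in the egg or control translation there were mixed. Of 13 such genes 6 were higher and 1 was lower, with a median of 0.05 that moved to 0.00 at a common 90th percentile. In each pair of line 75 arrays 6 of the 13 were higher, and with brightness as a covariate 1 was. The exuperantia gene exu, needed to localise bicoid RNA, read 63.8 and 52.5 at 5 h and 44.7 and 39.6 at 8 h. The other lines had medians of 12.1 at 5 h and 3.53 at 8 h, and their highest arrays reached 42.5 and 69.9. The difference of exu was 1.33 ± 0.22 (adjusted p = 6e-05). The posterior determinant oskar (osk) read 51.1, 76.6, 63.4 and 71.5, and at 8 h both values exceeded all 16 other arrays, the highest of which was 57.6. It was higher by 1.16 ± 0.18 (adjusted p = 1.9e-05). The swallow gene swa, another bicoid RNA localisation factor, was higher by 0.88 ± 0.12 and bicoid (bcd) itself by 0.79 ± 0.14 (adjusted p = 2.4e-06 and 0.00015). The member that was lower, the RNA-binding gene stau, differed by -0.45, while the germ plasm helicase vas differed by 0.05 and was not called.

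Of 8 germ plasm and germ cell genes 3 were higher (37.5%, against 6.79% of all genes) and 0 lower, with a median of 0.30. With brightness as a covariate 2 were higher. The germ cell-less gene gcl, required to form pole cells, had near-equal intensities of 62.7, 58.8, 57.3 and 62.7 on the line 75 arrays. At 8 h the other lines ran from 10.1 through 14.3 to 31.1, so the groups did not overlap, while at 5 h the highest other array was 59.2. The difference of gcl was 1.03 ± 0.10 (adjusted p = 1.9e-08), and it was 0.78 with brightness as a covariate (adjusted p = 0.0031). The ovarian tumour gene otu, which acts in egg formation, was higher by 0.95 ± 0.11 (adjusted p = 4.3e-07), and the mitotic cyclin gene CycB by 0.71 ± 0.16 (adjusted p = 0.0023). The germ line gap junction gene zpg differed by 0.29 ± 0.10 and was not called (adjusted p = 0.084).

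Further genes come from the 15 largest higher differences. These were ranked by size among called genes whose line 75 mean exceeded every other line mean at both times. The genes also had to be above the limit on all 4 line 75 arrays. The yolkless gene yl, which encodes the yolk protein receptor of the oocyte, read 29.2 and 36.8 at 5 h and 33.9 and 42.7 at 8 h. No other array exceeded 24.6 at 5 h or 21.5 at 8 h, and yl was higher by 1.00 ± 0.11 (adjusted p = 6.6e-08). The perilipin gene Lsd-2, a coat protein of lipid droplets, was higher by 1.30 ± 0.17 (adjusted p = 1.3e-06). Also among the 15 were gus, whose product binds the Vasa protein, at 1.01 ± 0.15, cue at 1.01 ± 0.12 and CG10237 at 1.08 ± 0.11. The homeobox gene caudal (cad) of the endoderm and gut list, which is supplied by the mother and later expressed at the posterior, was higher by 0.89 ± 0.11 (adjusted p = 1.2e-06).

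**Figure D3:**
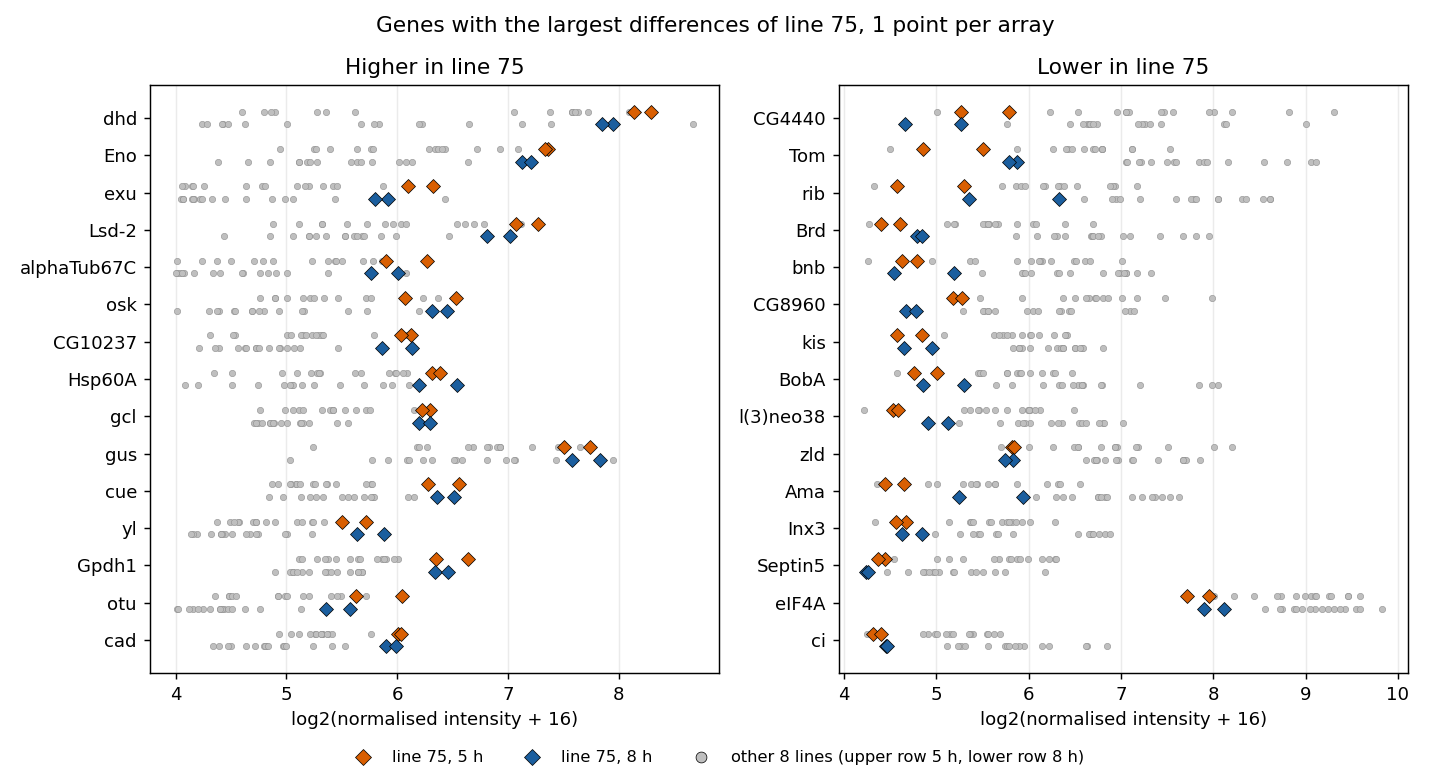
Quantile normalised log2(intensity + 16) on each array for the 15 named genes with the largest higher (left) and lower (right) differences; diamonds are line 75 at 5 h (orange) and 8 h (blue), and grey points are the other 8 lines. At 8 h the line 75 arrays lie outside the range of all other arrays for 10 of the 15 higher genes and for 15 of the 15 lower genes. The genes were picked with line 75 as the extreme line mean at both times, which favours such separation.

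Among those 15 higher genes line 75 lay above every other array in 8 at 5 h and in 10 at 8 h. Picking genes with line 75 as the highest line at both times favours such separation. The line with the next highest mean was Drosophila_89 for 12 of the 15 at 5 h and for 10 at 8 h. In the other lines 14 of the 15 fell from 5 h to 8 h by the sign of the mean, cue being the exception. All 15 were called under the 3 other scalings and without Drosophila_89, and 10 were called with brightness as a covariate. In each pair of line 75 arrays alone 14 of the 15 were called.

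Genes of sugar breakdown were also higher. Of 9 glycolysis genes 7 were higher and 0 lower, with a median of 0.36. Enolase (Eno) read 148 and 144.9 at 5 h and 124 and 133 at 8 h. The other lines had medians of 62.1 and 27.3 and highest arrays of 120 and 83.6, so line 75 lay above all of them at both times. Its difference was 1.50 ± 0.16 (adjusted p = 6.2e-08), and 1.04 with brightness as a covariate (adjusted p = 0.011). The triose phosphate isomerase gene Tpi was higher by 0.93 ± 0.18, Gapdh1 by 0.86 ± 0.14 and the phosphoglycerate kinase gene Pgk by 0.57 ± 0.13 (adjusted p = 0.0007, 8.6e-05 and 0.0021). Hexokinase A (Hex-A) differed by 0.26 ± 0.10 and was not called. Glycerol-3-phosphate dehydrogenase (Gpdh1), which links glycolysis to lipid synthesis, read 84, 65.7, 65 and 72.2, above every other array at both times, and was higher by 0.98 ± 0.13 (adjusted p = 1.7e-06). With brightness as a covariate 1 of the 9 glycolysis genes was called, and in the pairs of arrays 2 and 3 were.

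Chaperone genes were higher as well, 7 of 11 against 1 lower, with a median of 0.42. The mitochondrial chaperonin Hsp60A read 63.4, 68.1, 57.8 and 76.9, above the highest other arrays at 5 h (52) and 8 h (57.6), and differed by 1.05 ± 0.17 (adjusted p = 4.2e-05). The small heat shock genes Hsp26 and Hsp27 were higher by 1.09 ± 0.28 and 0.92 ± 0.19 (adjusted p = 0.009 and 0.00081), with ranges that overlapped those of the other lines. The mitochondrial Hsc70-5 was higher by 0.86 ± 0.12 (adjusted p = 2.4e-06), while the cytosolic Hsc70-4 was the lower member at -0.28. With brightness as a covariate 0 of the 11 were called, and their median was 0.37. Of 15 thioredoxin and redox genes 3 were higher and 0 lower, namely dhd, the reductase gene Trxr1 at 0.78 ± 0.10 and Trx2 at 0.57 ± 0.12, and the list's median was 0.00. Among 34 glutathione transferases 3 were higher (8.82%, near the 6.79% over all genes) and 0 with brightness as a covariate. The detoxification enzyme gene GstD1 differed by 1.41 ± 0.28 (adjusted p = 0.00072). Its line 75 values of 118, 99.1, 89.2 and 79.2 lay inside the range of the other lines.

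Notch target and Bearded family genes were lower in line 75. Of 14 Notch target and Bearded family genes 13 were lower and 0 higher, with a median of -0.55, and 8 of the 14 were the lowest of the 9 lines at both times. The Bearded family encodes small inhibitors of Neuralized, the ligase that activates the Notch ligand Delta. Its member Tom read 12.8 and 29.4 at 5 h and 42.6 and 39.5 at 8 h. In the other lines Tom had a median of 87.8 at 5 h, with a lowest array of 6.57, and ran from 117 through 196 to 538 at 8 h. The 8 h groups did not overlap, and the difference was -1.70 ± 0.20 (adjusted p = 3.6e-07).

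The founding member Brd read 8.47, 5.04, 11.7 and 12.5, against a lowest value of 42.2 and a median of 89.9 in the other lines at 8 h. It differed by -1.56 ± 0.18 (adjusted p = 2.7e-07), and BobA, a close relative, by -1.27 ± 0.19 (adjusted p = 1.3e-05). Cross-hybridisation between these related genes was not tested. The Enhancer of split gene E(spl)m5-HLH, a repressor switched on by Notch, differed by -0.81 ± 0.14 (adjusted p = 9.9e-05). The ligase gene neur differed by -0.53, and the 1 member not called, E(spl)m6-BFM, by 0.01. On the deposited scale 7 of the 14 were lower, with brightness as a covariate 3 were, and without the muscle-high and the other pair 8 and 6 were.

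Genes of cellularisation and the first zygotic wave were lower, 11 of 15 against 0 higher, with a median of -0.60. On the deposited scale 7 were lower and 1 higher, with brightness as a covariate 3 were lower, and without the muscle-high and the other pair 7 and 9 were lower. The activator zld read 40.5 and 41.4 at 5 h and 40.8 and 37.6 at 8 h. The other lines had medians of 107 and 116, and at 8 h their lowest array was 82.5. The difference of zld was -1.19 ± 0.13 (adjusted p = 6.2e-08), but on the deposited scale it was -0.49 and not called (adjusted p = 0.11). SNCF, an early zygotic gene, and halo, a regulator of lipid droplet transport, differed by -1.01 ± 0.23 and -0.96 ± 0.16.

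Segmentation genes were lower too. All 7 pair-rule genes on the list were lower, with a median of -0.40, led by the zinc finger genes opa at -0.95 ± 0.13 and odd at -0.65 ± 0.09. With brightness as a covariate 0 of the 7 were called, and 4 were called in either pair of line 75 arrays. Of 12 gap and terminal genes 7 were lower and 0 higher (median -0.31), among them the terminal gene hkb at -0.59 ± 0.11. None was called with brightness as a covariate (0 of 12), and without the muscle-high and the other pair 2 and 4 were. Of 10 segment polarity genes 3 were lower (30%, against 4.21% of all genes) and 0 higher, and 2 were lower with brightness as a covariate. The Hedgehog pathway transcription factor ci read 3.89, 5.07, 5.85 and 6.23, with 18.7 as the lowest other array at 8 h, and differed by -1.12 ± 0.14 (adjusted p = 6.1e-07). The posterior compartment gene en, at -0.58 ± 0.08, was called too, while its neighbour inv, at -0.07, was not. Of 10 dorsal-ventral genes 3 were lower, including the mesoderm determinants twi at -0.65 ± 0.10 and sna at -0.55 ± 0.09, and with brightness as a covariate 0 were.

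Early nervous system genes followed. Of 21 neuroblast genes 10 were lower and 0 higher, with a median of -0.25, and 5 were lower with brightness as a covariate. Miranda (mira), the adaptor that carries fate determinants in dividing neuroblasts, read 9.72, 8.52, 4.59 and 8.26. The other lines had medians of 71.3 and 63.6, and their lowest array at 8 h was 16.9. Its difference was -1.68 ± 0.15 (adjusted p = 4.3e-09), and it was -1.67 with brightness as a covariate (adjusted p = 0.00012).

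The Sox genes D and SoxN, which act in the neuroectoderm, differed by -1.23 ± 0.13 and -0.89 ± 0.12, and pros, a cargo of Miranda, by -0.76 ± 0.10. Proneural genes of the achaete-scute complex were not called, with differences of -0.11 for ac and -0.26 for l(1)sc. Of 15 neuron and glia genes 6 were lower and 1 higher, and 2 and 1 with brightness as a covariate. The pan-neuronal RNA-binding gene elav read 4.41, 1.45, 1.36 and 6.25 and lay below the lowest other array at 8 h, 8.37, with a difference of -0.99 ± 0.13 (adjusted p = 1.5e-06). The adhesion gene Ama differed by -1.19 ± 0.19, and the axon guidance receptor robo1 by -0.27 ± 0.12, which was not called. The higher member of the list, the nuclear receptor ftz-f1 at 0.72 ± 0.11, is also supplied by the mother.

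Trachea, amnioserosa and gut lists also held lower genes, in 45.5%, 42.9% and 41.7% of their members against 4.21% of all genes. With brightness as a covariate 2, 1 and 0 of these genes were called lower. The tracheal and salivary gland regulator ribbon (rib) read 7.76 and 23.3 at 5 h and 24.7 and 64.6 at 8 h, below the lowest other 8 h array, 80.9. It differed by -1.60 ± 0.20 (adjusted p = 9.8e-07) and was 1 of 5 lower genes among 11 of the trachea list. The zinc finger gene peb, needed in the amnioserosa and trachea, differed by -0.75 ± 0.09 and was above the limit on 1 of the 4 line 75 arrays. Of 14 amnioserosa and dorsal ectoderm genes 6 were lower and 0 higher, and of 12 endoderm and gut genes 5 were lower and 1, cad, was higher. ImpL2, whose product binds insulin-like peptides, differed by -1.07 ± 0.15 (adjusted p = 3.8e-06). Of 14 muscle structural genes, 15 epidermis and cuticle genes and 98 cuticle protein genes, 0 were called in either direction. Of these 8, 3 and 0 counted as measured, and the rest were below the limit on most arrays. The split between the line 75 arrays described above lies in the muscle and cuticle protein lists. It also lies in the haemocyte, fat body and basement membrane list, where 3 of 19 genes were lower (15.8%), and 0 with brightness as a covariate. Of 13 mesoderm and myogenic regulators 1 was higher (rost) and 1 lower (twi).

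The remaining lower genes of the 15 had varied roles. The 15 are the largest differences among called genes with line 75 as the lowest line mean at both times. These genes were also above the limit on most arrays of the other lines. The mira gene, at -1.68, was left out because Drosophila_89 had a lower mean at 5 h. The chromatin remodeller kis read 7.73, 12.6, 9.07 and 14.8, with 40.7 as the lowest other 8 h array, and differed by -1.32 ± 0.11 (adjusted p = 4.4e-10). The translation initiation helicase eIF4A was an abundant gene whose groups were apart at both times. It read 195, 231, 262 and 223 in line 75, against lowest values of 242 at 5 h and 363 at 8 h elsewhere, a difference of -1.12 ± 0.08 (adjusted p = 1.3e-10). On the deposited scale the difference of eIF4A was -0.20 and not called (adjusted p = 0.54). The septin gene Septin5 also lay below every other array at both times (-1.13 ± 0.12), and the gap junction gene Inx3 differed by -1.16 ± 0.13. CG4440 had the largest difference of these 15, -2.01 ± 0.27, and bnb, CG8960 and l(3)neo38 differed by -1.50, -1.41 and -1.20. All 15 of the lower genes lay below every other array at 8 h and 2 of 15 did at 5 h. Picking genes with line 75 as the lowest line at both times favours such separation. The next lowest line at 5 h was Drosophila_89 for 12 of the 15. In the other lines 3 of the 15 fell from 5 h to 8 h by the sign of the mean (CG4440, CG8960 and Septin5), and the rest rose. On the deposited scale 12 were called, with brightness as a covariate 13, and in each pair of line 75 arrays 15.

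**Figure D4:**
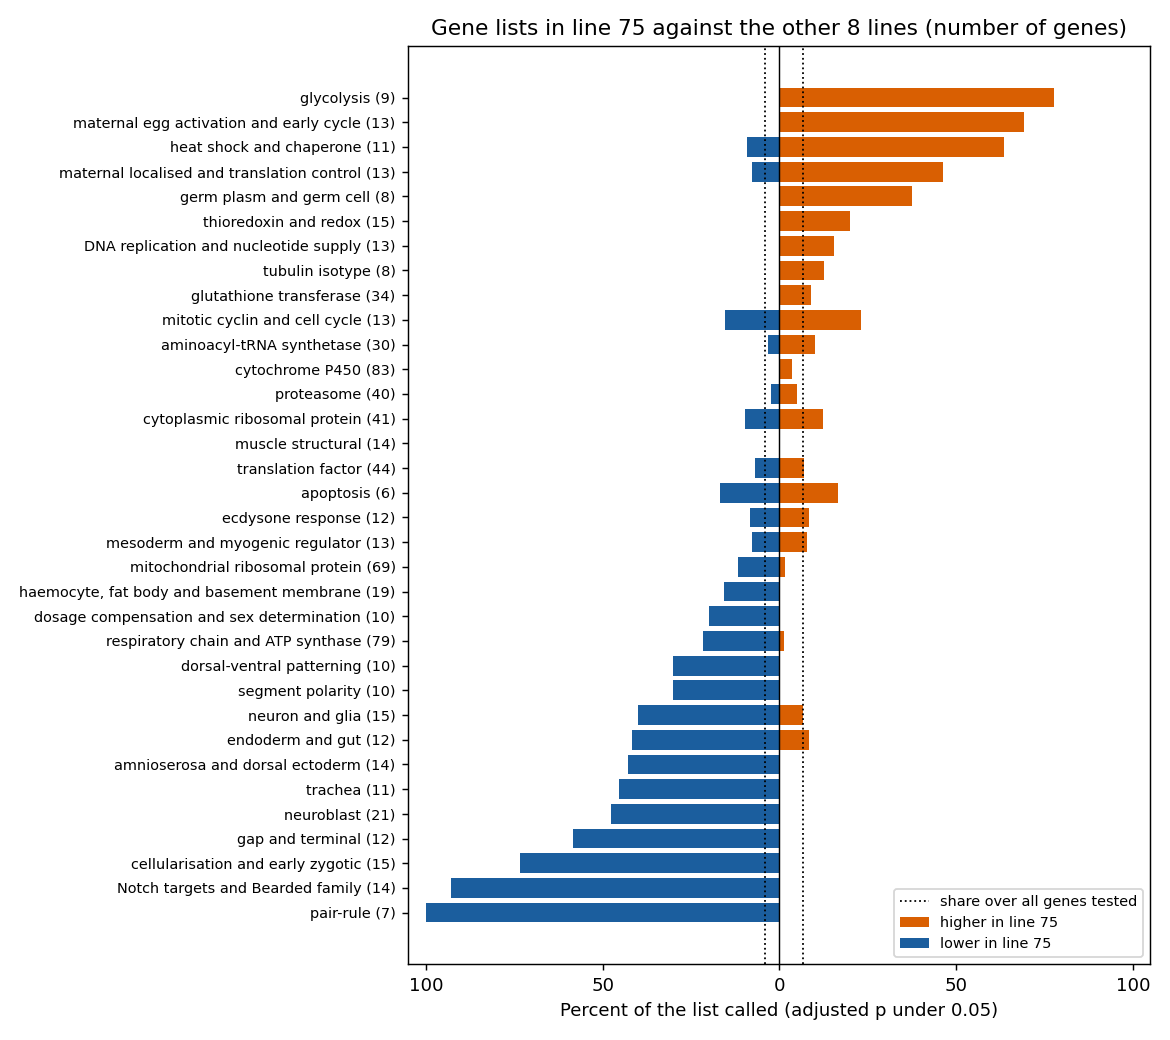
Percent of each gene list called higher (right, orange) or lower (left, blue) in line 75, with the number of genes in parentheses, for lists with 5 or more measured genes; dotted lines mark the shares over all 11982 genes, 6.79% and 4.21%. Glycolysis (77.8% higher) and maternal egg activation (69.2%) stand at the top, and pair-rule (100% lower) and Notch target and Bearded family genes (92.9%) at the bottom.

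Genes of the basic machinery depended on the scaling. Of 41 cytoplasmic ribosomal protein genes 5 were higher and 4 lower, against 31 and 0 on the deposited scale and 0 and 3 at a common 90th percentile. RpS21 differed by -0.67 ± 0.08 as reported and by 0.29 on the deposited scale, so its direction is not settled. Of 79 respiratory chain and ATP synthase genes 1 was higher and 17 lower, with a median of -0.10, but on the deposited scale 24 were higher and 0 lower. Among the lower ones, cype, a cytochrome c oxidase subunit, differed by -0.91 ± 0.14 and ND-MLRQ, named as a complex I subunit, by -0.81 ± 0.13, the latter turning to 0.06 on the deposited scale. Of 69 mitochondrial ribosomal protein genes 1 was higher and 8 lower, against 40 and 0 on the deposited scale. Proteasome genes (2 higher and 1 lower of 40), translation factors (3 and 3 of 44) and aminoacyl-tRNA synthetases (3 and 1 of 30) lay near the shares over all genes. The cap-binding factor eIF4E1 was higher by 0.83 ± 0.14 and the scaffold eIF4G1 lower at -0.66 ± 0.10, the latter not called on the deposited scale (adjusted p = 0.87).

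With the line as the unit of replication 4 probe sets were called higher. The eggshell gene dec (defective chorion) read 3.84, 6.19, 7.27 and 7.19 in line 75. It was above the limit on 4 of 4 line 75 arrays and on 0 of 31 others, the only probe set with that pattern. Line 75 was at least 2.33-fold higher, with an adjusted p of 0.00014 from limma with lines as units. Of the other 14 eggshell and yolk genes 0 were called. Only 1 of the 15 genes of this list, which was not dec, counted as measured. The rest, dec included, were below the limit on most arrays. The ribose-5-phosphate isomerase gene Rpi read 17, 21.3, 22 and 16.9 against a highest other array of 9.51, and differed by 0.83 ± 0.10 (adjusted p = 0.0023). The ceramide transfer gene cert read 18.8, 19, 18.9 and 11.8 against a highest other array of 10.3, and differed by 0.70 ± 0.11 (adjusted p = 0.028). The fourth, 1634658_a_at, is unnamed here, had a low median of 1.33 on the other arrays and differed by 0.54 ± 0.07. Conversely 1 unnamed probe set, 1628989_at, was above the limit on 0 of 4 line 75 arrays and on 28 of 31 others, where it was at least 2.31-fold higher. Among 18 adult midgut protease and 165 chemoreceptor genes, which mark other tissues, 0 were above background on enough arrays to count as measured and 0 were called.

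At 5 h alone 183 probe sets were higher (0.975%) and 179 lower (0.954%), and at 8 h alone 610 (3.25%) and 432 (2.3%). Of the 957 probe sets higher over both times 180 were also called at 5 h alone and 555 at 8 h alone, and of the 662 lower ones 168 and 387 were. The difference itself was called as changed between the times for 10 probe sets, 9 upward (0.048%) and 1 downward (0.00533%). At an unadjusted p under 0.05 from limma there were 433 upward and 405 downward, and the same threshold applied to 18769 probe sets is 938. The mitotic inhibitor gene Z600 read 9.29 and 12.2 at 5 h in line 75, against a median of 119 elsewhere, and 0.21 and 0.0785 at 8 h, against a median of 1.47. Its difference was -2.19 ± 0.21 at 5 h and -0.26 ± 0.21 at 8 h, where neither line 75 array was above the limit.

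The membrane growth gene slam read 46.7 and 51.4 at 5 h against a median of 141 and 23 and 17.9 at 8 h against 12.7, with differences of -1.31 ± 0.21 and 0.25 ± 0.21. Bro, which encodes a partner of Runt domain factors, bard, CG34214 and CG14014 had a lower level at 5 h and a difference at 8 h between -0.15 and -0.01. At 8 h these genes and Z600 were dim in both groups, with medians elsewhere of 0.252, 1.38, 0.691, 1.36 and 1.47 in that order, levels at which an offset of 16 compresses differences. With an offset of 4, 1 probe set was called for the time difference, and the 8 named genes were not (adjusted p from 0.063 to 0.95). The peroxidase gene Gtpx read 42.7 and 40.9 at 5 h and 40.4 and 44.1 at 8 h while the medians elsewhere were 44.6 and 17.8. Its difference was -0.13 ± 0.12 at 5 h and 0.72 ± 0.12 at 8 h. The gene fok was the downward call, at 0.78 ± 0.22 and -0.76 ± 0.22. In either pair of line 75 arrays limma called 0 probe sets for the time difference, with 551 at an unadjusted p under 0.05 without the muscle-high pair and 430 without the other.

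**Figure D5:**
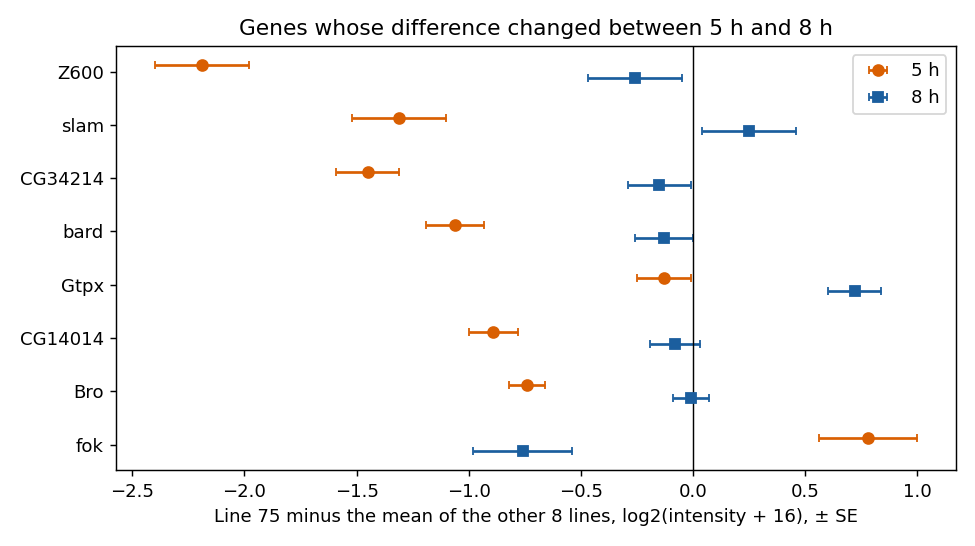
Difference of line 75 from the mean of the other 8 lines at 5 h (orange circles) and 8 h (blue squares) for the 8 named genes whose difference changed between the times; bars are ± SE from the fit. Z600 moves from -2.19 to -0.26, Gtpx from -0.13 to 0.72 and fok from 0.78 to -0.76.

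By chromosome arm, called genes were spread over the genome. Of 5179 measured genes 14.6% were higher and 9.6% lower. On X 16.4% were higher and 7.43% lower, against 12.3% and 9.13% on 3R and 22.6% and 19.4% of the 31 on chromosome 4. Of 10 dosage compensation and sex determination genes 2 were lower (20%, against 4.21% of all genes), and 8 of the 10 were measured. The lower ones were the sex switch gene Sxl at -0.74 ± 0.11 and msl-2 at -0.22 ± 0.06, a subunit gene of the male dosage compensation complex. The msl-2 gene was above the limit on 0 of 4 line 75 arrays. With brightness as a covariate 0 of the 10 were called. Among measured probe sets, line 75 had the highest mean of the 9 lines at both times for 488 and the lowest for 336, Drosophila_58 for 420 and 273, and Drosophila_134 for 114 and 299.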

How the data were processed

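Embryo RNA from 9 lines at 2 times was labelled with biotin by the one-cycle method, per the labels' protocols. The authors deposited linear intensity values for 18952 probe sets, and their software and scaling are not given in the sources that were used. The 183 control probe sets were left out; 50 of these, taken by name as negative controls, gave each array's limit (99th percentile), and the 6145 probe sets above it on at least 18 of 35 arrays are called measured. Arrays with a named line were quantile normalised over the 18769 other probe sets and tested as log2(intensity + 16) with limma 3.58.1 in R 4.3.3. The model held 18 means of line and time, leaving 17 residual degrees of freedom, with eBayes trend and Benjamini-Hochberg adjustment, and was tested on simulated data. Symbols came from the platform annotation updated through RefSeq Release 6: 13544 of 13647 probe sets with 1 symbol matched, 402 had several and 4720 none. A gene is its brightest probe set.

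Named genes are the 15 largest differences in each direction among called genes with line 75 extreme at both times (390 higher and 208 lower passed), the 8 largest called time differences and up to 4 called members of each list. Other members complete a list, and Rpi, cert, the unnamed probe sets and the late tissue genes were chosen after their values were seen. Groups, lists and members were chosen with earlier results of these data known. The number of arrays limits the precision.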

Additional observations from a re-analysis of the deposited data

Results flagged for a closer look

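In 8 named genes the difference of line 75 from the other lines changed between 5 h and 8 h by limma's test of that change. Z600 changed by 1.93 (log2, 8 h minus 5 h; adjusted p = 0.0016), slam by 1.56 (adjusted p = 0.028), CG34214 by 1.30 (adjusted p = 0.0016), bard by 0.92 (adjusted p = 0.043), Gtpx by 0.85 (adjusted p = 0.043), CG14014 by 0.81 (adjusted p = 0.017) and Bro by 0.74 (adjusted p = 0.0016). The gene fok changed by -1.54 (adjusted p = 0.043). With an offset of 4 in place of 16 none of these 8 was called (adjusted p from 0.063 to 0.95), and at 8 h neither line 75 array of Z600 was above the limit. Groups of 2 arrays are too small for a test of single outlying arrays.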

How the results depend on the processing

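The 1619 probe sets called over both times became 4909 on the deposited scale, 3462 with arrays divided by their median, 173 with array brightness as a covariate, 4 with the line as the unit, and 650 and 524 without the muscle-high and the other pair of line 75 arrays, both alternatives chosen after seeing the data. Leaving out 1 array at a time gave 882 to 1787, with the lowest counts when a line 75 array was left out (882 to 1016). The 362 calls at 5 h became 2406, 603 and 92 in the same first 3 settings, 623 over measured probe sets only, 569 without Drosophila_89 and 34 and 45 without the pairs (35 to 451 leaving out 1 array). The 1042 at 8 h became 4189, 3643, 79, 359 and 220 (265 to 1256). The 10 calls for the time difference became 0 on the deposited scale, 1 and 19 at pseudocounts of 4 and 64, 5 without Drosophila_17, 5 without Drosophila_83, 23 without Drosophila_89, 18 without Drosophila_128, 4 without Drosophila_134, and 0 and 0 without the pairs (0 to 16). With the line as the unit, 4 calls became 269 on the deposited scale. The cause of these moves was not tested. On the deposited scale the differences of slam, aurB, Dcp-1, RpS21, RpLP0, mRpL51, ND-MLRQ, COX7B, Prosbeta4 and TyrRS turned to 0.07, 0.06, 0.25, 0.29, 0.46, 0.02, 0.06, 0.15, 0.21 and 0.12, and after division by the median those of Dcp-1, RpS21 and RpLP0 to 0.09, 0.01 and 0.18. Of 142 differences of named genes, 88 were no longer called with brightness as a covariate and 39 on the deposited scale, 10 of which turned sign; with the line as the unit 125 of those over both times lost their call. A fit with the sample letter as a replicate block called 1621 (965 higher and 656 lower) and changed no named gene's call. Differences between samples 1 and 2 correlated between times at -0.384 in line 75. In the other lines with 2 samples at both times the correlation was between -0.062 and 0.28. Whether the letters pair the samples cannot be told from these values. Dim genes near the limit are not resolved.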
